A study of Pimephales promelas with 191 samples.

Results

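Gene expression in the liver of adult male fathead minnow, Pimephales promelas, exposed to guanylurea at 100 µg/L was compared between 96 h, the last collection, and 6 h, the first. The members are the 12 libraries of 96 h and the 12 of 6 h from fish given guanylurea alone, chosen by treatment and time label. These 24 stand beside 167 other libraries of the series. The 23 guanylurea libraries of 24 h (n = 11) and 48 h (n = 12) served only to trace the genes called between 6 and 96 h. The same contrast was taken, with 12 libraries a side, in livers with metformin at 41 µg/L, with a mixture of both compounds, and in the control group. All of these fish were adult males, and the molecule sequenced was liver messenger RNA from a stranded library kit.

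Metformin is a biguanide drug against type 2 diabetes that acts on energy metabolism in mammalian liver. It leaves the body largely intact, and microbes in sewage treatment turn it into guanylurea, which reaches rivers with treated effluent. The liver carries out much of the metabolism of nutrients and foreign compounds in fish, and its transcripts also follow feeding and time of day. The fathead minnow is a small freshwater fish of standard use in toxicity tests.

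Total counts per library ran from 18.9 to 24.4 M (M, mega) at 96 h and from 15.2 to 22.2 M at 6 h. A count was present for 20008 ± 260 genes at 96 h and 19727 ± 368 genes at 6 h (SD, n = 12 each; permutation test, two-sided, p = 0.0428, and 0.138 after adjustment over 4 library measures). Of the 8 libraries in the series that agreed poorly with their group, 0 were among the 24, and 2 were control libraries of 96 h, numbered 2 and 4. The control library of 6 h numbered 3 and the mixture library of 96 h numbered 3 were also among the 8. The gene identifiers are not paired with names in the files, and 0 of 26150 matched the RefSeq gene table, so neither the tissue nor any pathway could be checked by markers. No label says that each library is a fish or tank of its own, and p-values therefore reflect only the spread among these samples, which may be technical. Where livers are counted below, each stands for a library, which need not be a fish of its own.

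Between 6 and 96 h with guanylurea, a small set of genes was called, with modest fitted changes. The called genes that fell had a higher median abundance than those that rose. Of 15236 genes tested, 95 were called (0.624%) at an adjusted p under 0.05, of which 33 rose (0.217%) and 62 fell (0.407%). The fitted log2 change had a median of 0.75 in the genes that rose (quartiles 0.62 to 0.92) and −0.70 in the genes that fell (quartiles −0.95 to −0.61), against 0.01 over all tested genes. A change of 2-fold or more was fitted for 7 of the 33 and 12 of the 62, against 2.7% of all tested genes in either direction. Calls were made by the quasi-likelihood test of edgeR, adjusted by Benjamini and Hochberg's method. In bulk liver, fewer cells of a type and less RNA per cell cannot be told apart, and since each time was also an occasion of its own, the length of exposure, the hour of the day and the handling of the fish cannot be told apart either.

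The count of 95 depended on single libraries and on the tool. With 1 library left out it ran from 19, without the 6 h library numbered 4, to 167, without the 96 h library numbered 12. The direction was kept in all 24 such fits for all 95 genes, and the highest unadjusted p any of them reached was 0.000866. Each fit reuses all but 1 of the libraries the genes were called in, so both follow largely from the choice of genes. Only 5 of the 33 and 14 of the 62 were called in every fit. At an unadjusted p under 0.05 there were 2449 genes, against 761.8 expected if no gene changed, so more genes may have changed than were called. The 95% interval of the change lay within 2-fold either way for 77.3% of tested genes and within 1.5-fold for 45.5%, so smaller changes were often not detectable at this depth and spread.

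**Figure D1:**
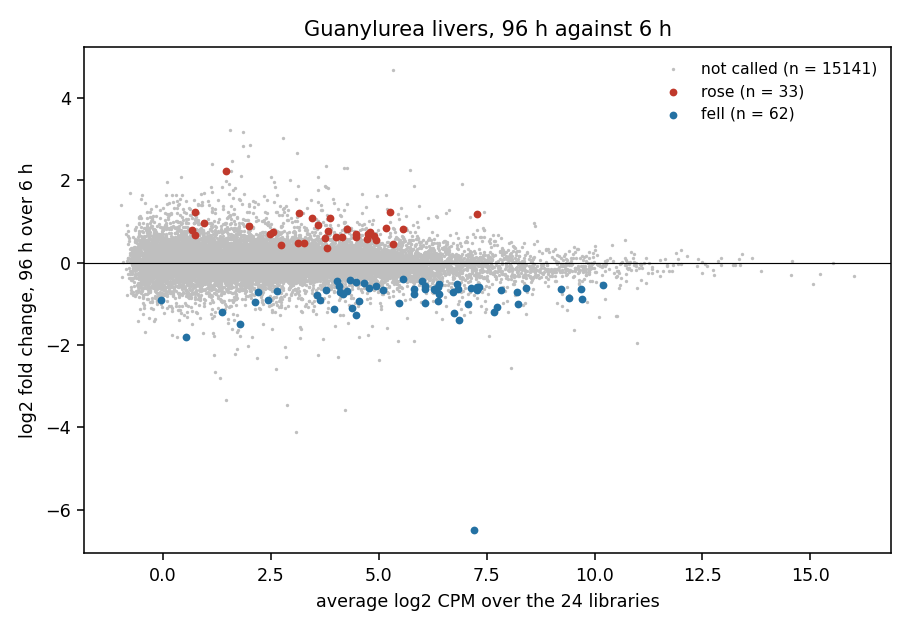
Fitted log2 fold change of 96 h over 6 h in guanylurea livers (vertical axis) against average log2 CPM over the 24 libraries (horizontal axis), each point a gene: red for the 33 that rose, blue for the 62 that fell, grey for genes not called. The genes that fell lie mostly to the right of those that rose, and the lowest blue point, at −6.50, is the gene carried by 3 livers of 6 h.

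Level set the 2 directions apart. Average abundance had a median of 6.03 log2 CPM (counts scaled to library depth) in the genes that fell and 3.81 in those that rose, against 2.87 over all tested genes. A level of 6 log2 CPM or more was reached by 32 of the 62 that fell and by 1 of the 33 that rose. Of all 15236 tested genes, 904 lay from 6 to 8 log2 CPM and 461 at 8 or more. Together the 62 genes that fell took 0.649% ± 0.066 of all counts at 96 h and 1.03% ± 0.175 at 6 h (SD, n = 12 each). The 33 that rose took 0.0929% at 96 h and 0.0481% at 6 h, on average. The genes were called for a change between these same libraries, so the direction of both differences follows from the choice. The 6 h share of the 62 also holds the gene of largest fall, which reached 1224 CPM in its highest liver.

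Among all tested genes the share called also varied with level. Under 2 log2 CPM 0.188% were called (6 higher and 4 lower), from 2 to 4 it was 0.378% (12 higher and 8 lower), and from 4 to 6 it was 0.982% (14 higher and 18 lower). From 6 to 8 log2 CPM 2.77% were called (1 higher and 24 lower), and at 8 or more 1.74% (0 higher and 8 lower). The fitted change, called or not, was positive in 54.6% of genes under 2 log2 CPM and in 54.8% from 2 to 4. It was positive in 49.9% from 4 to 6, in 41.3% from 6 to 8 and in 27.8% of the 461 genes at 8 or more. In those 461 genes the median change of 96 h minus 6 h was −0.13 with guanylurea, −0.22 with metformin, −0.16 with the mixture and −0.09 in controls (log2 CPM). Single guanylurea libraries overlapped between times. Their median over the 461 genes, minus the guanylurea 6 h mean, ran from −0.41 to 0.14 at 96 h. At 6 h it ran from −0.24 to 0.35.

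The change was spread over the libraries, with overlap between times. At least 10 of the 12 livers of 96 h lay beyond the 6 h median in 33 of the 33 genes that rose and 61 of the 62 that fell, against 12.1% and 12% of all tested genes. All 12 did so for 15 and 53 genes, against 1.41% and 1.69% of all genes. These values come from the libraries the genes were called in and describe the calls.

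FMg011376 was the gene of smallest p among those that rose and is a low-abundance transcript. It had 4.70 to 9.08 CPM at 96 h (median 7.21) and 3.20 to 5.42 CPM at 6 h (median 4.2). All 12 livers of 96 h were above the 6 h median and 11 were above every liver of 6 h, so the groups overlapped by 1 liver of 96 h. The fitted log2 change was 0.76 (SE 0.11, adjusted p = 0.00485, edgeR quasi-likelihood test).

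FMg000308, the other named gene that rose, had 17.9 to 98.8 CPM at 96 h (median 51.2) and 10.6 to 37.8 CPM at 6 h (median 21.8). The groups overlapped, with 10 livers of 96 h above every liver of 6 h. Its log2 change was 1.24 (SE 0.23, adjusted p = 0.0198, edgeR quasi-likelihood test), more than 2-fold.

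FMg006731, the gene of smallest p among those that fell, had 157 to 282 CPM at 96 h (median 215) and 262 to 511 CPM at 6 h (median 333). All 12 livers of 96 h were below the 6 h median and 11 were below every liver of 6 h. The log2 change was −0.72 (SE 0.11, adjusted p = 0.0056, edgeR quasi-likelihood test).

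FMg013763 had 10.8 to 23.7 CPM at 96 h (median 15.1) and 18.6 to 48.4 CPM at 6 h (median 29.1). All 12 livers of 96 h were again below the 6 h median, and 10 were below every liver of 6 h. The log2 change was −0.93 (SE 0.15, adjusted p = 0.0056, edgeR quasi-likelihood test). All 4 named genes kept their call and direction in 32 of 32 alternative fits. They were picked for small p in libraries that these fits reuse, so this describes the choice and is no independent check.

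**Figure D2:**
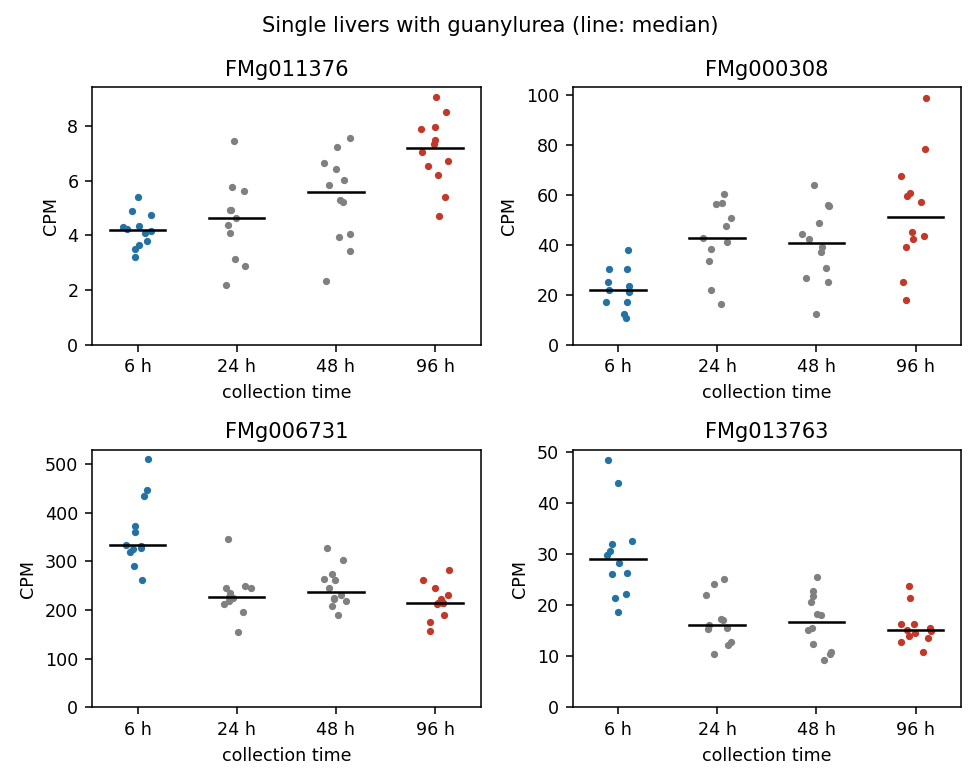
CPM of the 4 named genes (vertical axis, from 0) in each guanylurea liver at 6, 24, 48 and 96 h (horizontal axis), with 6 h in blue, 96 h in red, the times between in grey and a line at each median. FMg006731 and FMg013763 are already low at 24 h, with medians of 227 and 16.2 CPM, while FMg011376 stands at 4.62 CPM at 24 h and 7.21 CPM at 96 h.

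In 1 gene, which fell, the 2 times did not overlap (1 of 15236 tested, 0.00656%). It was chosen after its values were seen, and its identifier is not paired with a name. It had 102 to 267 CPM at 96 h (median 208) and 276 to 753 CPM at 6 h (median 347), a log2 change of −1.0 (SE 0.17, adjusted p = 0.0102, edgeR quasi-likelihood test). The same gene had fitted log2 changes of −0.71 with metformin (adjusted p = 0.0606), −0.76 with the mixture (adjusted p = 0.0132) and −0.02 in controls (adjusted p = 0.96).

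The gene with the largest fitted fall was of another kind. Its log2 change was −6.50 (SE 1.43, adjusted p = 0.0406, edgeR quasi-likelihood test), yet its median was 3.05 CPM at 96 h and 1.8 CPM at 6 h. At 6 h 3 livers held 1224, 1138 and 1053 CPM, and only 4 of the 12 livers of 96 h lay below the 6 h median. limma voom with quality weights gave −1.52 (adjusted p = 0.599), and DESeq2 gave no adjusted p. It is counted among the 62.

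The called genes were on their way at 24 and 48 h, in both directions. Relative to 6 h, the median log2 CPM difference of the 33 that rose was 0.34, 0.52 and 0.73 after 24, 48 and 96 h. For the 62 that fell it was −0.44, −0.60 and −0.67. Among those that rose, the median gene had covered 0.418 of its 96 h change at 24 h and 0.687 at 48 h. Among those that fell it had covered 0.657 and 0.757. Over all tested genes that stood higher at 96 h these medians were 0.519 and 0.601, and over those that stood lower 0.523 and 0.656. At 24 h the genes that rose thus lay below the value of all such genes. All 3 comparisons share the 6 h libraries, which makes them alike, so the step from 24 to 48 h, which uses libraries of neither end, is given as well: its median was 0.12 in the genes that rose and −0.12 in those that fell.

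Single genes differed in their path. Group means moved in 1 direction through all 4 times in 24 of the 33 genes that rose and 34 of the 62 that fell, against 15.3% and 14.7% of all tested genes that stood higher and lower at 96 h. The largest of the 3 steps was that between 6 and 24 h in 17 of the 33 and 42 of the 62, against 41.2% and 41.7% of all. At 24 h, 14 of the 33 and 36 of the 62 were past 50% of their 96 h change, against 51.1% and 51.2% of all, and at 48 h 23 and 50 were, against 55.7% and 57.2%. The genes were called with the libraries of 6 and 96 h, which enlarges the steps that start or end there, so these counts describe the genes and test nothing.

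Tests of the times between, in 1 fit of the 47 guanylurea libraries, used edgeR's quasi-likelihood test. At 24 h against 6 h, 0 of the 33 genes and 9 of the 62 were called in the same direction, when 0.054% of 16654 genes were called higher and 0.126% lower (0.18% in all). At an unadjusted p under 0.05 the counts were 16 and 41, against 4.31% of all genes higher and 5.72% lower. At 48 h against 6 h 10 of the 33 and 34 of the 62 were called, when 0.42% of all genes were called higher and 1.17% lower (1.59% in all). Both tests share the 6 h libraries in which the 33 and 62 genes were called, so shares above those of all genes are partly built in. For 96 h against 48 h the count was 0 by edgeR, 0 by limma voom and 26 by DESeq2. Here 1416 genes had an unadjusted p under 0.05 by edgeR, against 832.7 expected if no gene changed.

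Of the named genes, FMg006731 and FMg013763 had fallen at 24 h, with log2 changes of −0.62 (SE 0.11, adjusted p = 0.00253) and −0.80 (SE 0.17, adjusted p = 0.0153). FMg000308 stood at 0.92 (SE 0.24, adjusted p = 0.0804) and FMg011376 at 0.12 (SE 0.16, adjusted p = 0.86).

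**Figure D3:**
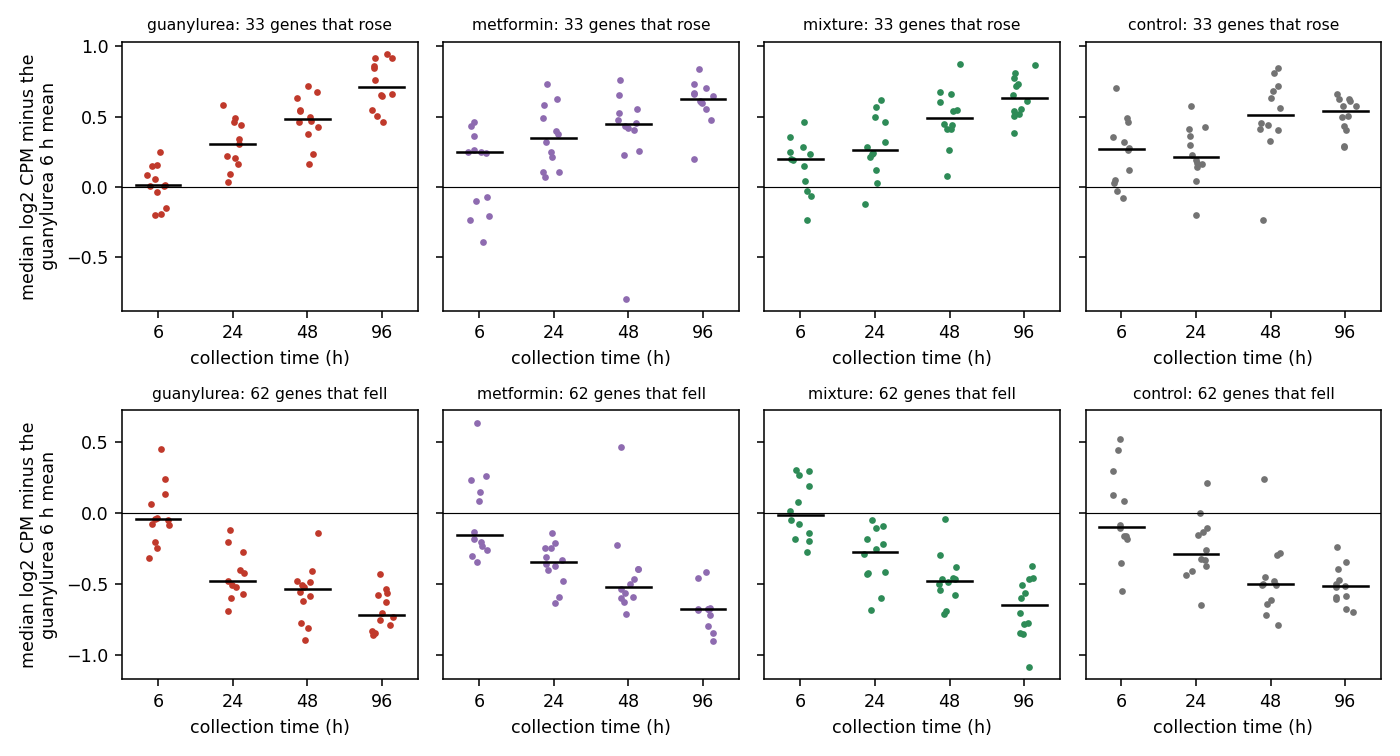
Each point is a library: the median, over the 33 genes that rose (top row) or the 62 that fell (bottom row), of log2 CPM minus the mean of the guanylurea 6 h libraries (vertical axis), at 6, 24, 48 and 96 h (horizontal axis), for guanylurea, metformin, the mixture and controls, with a line at each group's median. In guanylurea livers 96 h and 6 h do not overlap, which the choice of the genes fixes; in the other 3 treatments, whose libraries played no part in that choice, the genes that fell also have lower medians at 96 h than at 6 h.

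Many genes that fell with guanylurea also fell in the other treatments, whose contrasts share no library with that of guanylurea. Of the 62, 40 were called lower with metformin, 45 with the mixture and 29 in controls, when 2.49%, 2.98% and 2.89% of all genes tested were called lower there. Among genes at 6 log2 CPM or more, the level at which 32 of the 62 lie, those shares were 7.7%, 9.96% and 6.3%. The median change of the 62 was −0.67 with guanylurea, −0.65 with metformin, −0.73 with the mixture and −0.54 in controls (log2 CPM). In all 3 other treatments 26 of the 62 were called, and in none of them 12 were. Without the control libraries of 96 h numbered 2 and 4, 24 of the 62 were called in controls. The matching shares of all genes are not given here, so these last counts describe the list only.

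Of the 33 genes that rose, 7 were called higher with metformin, 11 with the mixture and 2 in controls, when 1.68%, 2.12% and 1.24% of all genes were called higher. Among genes from 2 to 6 log2 CPM those shares were 2.04%, 2.21% and 1.03%. Their median change was 0.73 with guanylurea, 0.48 with metformin, 0.49 with the mixture and 0.27 in controls. In all 3 others 1 of the 33 was called, and in none 17 were. The matching shares of all genes are not given here either. The guanylurea medians come from the libraries in which the genes were called and the other medians do not, so the sizes are not on an equal footing.

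The direction alone matched more widely than the calls. It was the same in 61 of the 62 genes that fell with metformin, 59 with the mixture and 56 in controls, and in 32, 30 and 26 of the 33 that rose. Over all genes tested in both, the sign matched in 70.9% with metformin, 70.4% with the mixture and 57.3% in controls. Genes are not independent replicates. Across them the fitted changes of guanylurea correlated at Pearson r = 0.444 with metformin, 0.445 with the mixture and 0.0444 with controls. Spearman rho was 0.512, 0.506 and 0.151 in the same order. The control changes include libraries of poor agreement, number 3 of 6 h and numbers 2 and 4 of 96 h. Those of the mixture include number 3 of 96 h. Correlations without these libraries were not taken.

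The lists of the 4 treatments differed in length: 95 genes were called with guanylurea, 626 with metformin (4.17%), 770 with the mixture (5.1%) and 621 in controls (4.13%). Genes with an unadjusted p under 0.05 differed less in number, at 2449, 3092, 3393 and 3388 in the same order. By DESeq2 the counts were 437, 1204, 1359 and 1070, and with the number as a replicate block in edgeR they were 50, 128, 100 and 244. Of the genes tested in both, the 47 shared with metformin were 49.5% of the guanylurea list and 7.53% of the 624 of metformin. The 56 shared with the mixture were 58.9% of the guanylurea list and 7.32% of 765, and the 31 shared with controls 32.6% and 5.05% of 614.

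**Figure D4:**
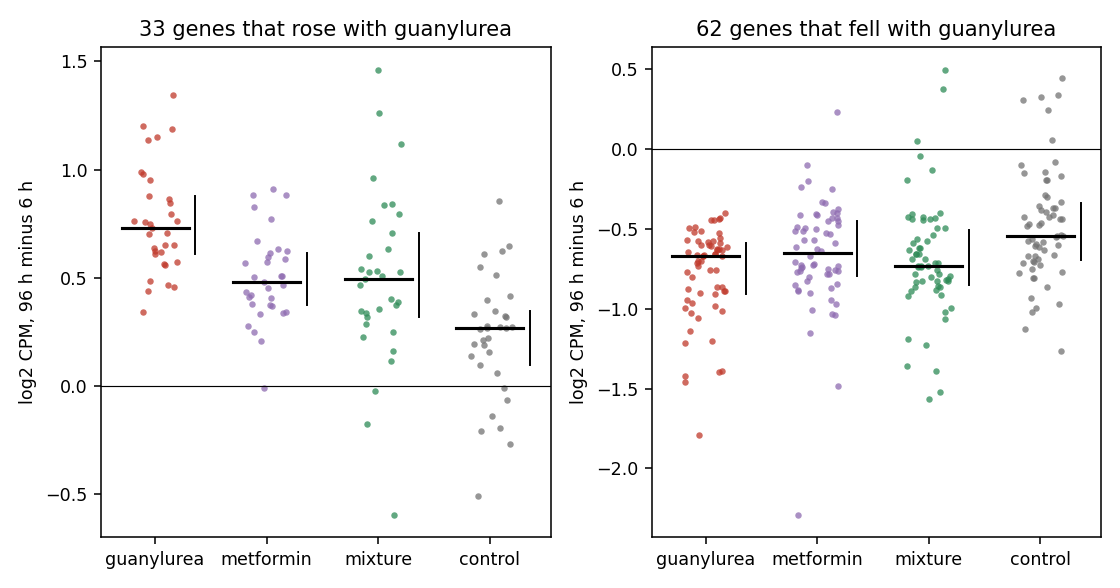
Difference in mean log2 CPM, 96 h minus 6 h (vertical axis), of the 33 genes that rose (left) and the 62 that fell (right) with guanylurea, in guanylurea, metformin, mixture and control livers; points are genes, horizontal lines medians and vertical lines the quartiles. The medians of the genes that fell lie between −0.73 and −0.54 in the 4 treatments, and those of the genes that rose between 0.27 in controls and 0.73 with guanylurea.

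The 17 genes that rose and were called in none of the other treatments had a median fitted log2 change of 0.76 with guanylurea and median differences of 0.38 with metformin, 0.34 with the mixture and 0.19 in controls. The 12 such genes that fell had a median of 2.53 log2 CPM, against 6.39 for the 26 called in all 3 and 2.87 over all tested genes. For these 12 the median fitted change was −0.90 with guanylurea, and the median log2 CPM differences were −0.37 with metformin, −0.31 with the mixture and −0.09 in controls. Both sets were chosen for a call with guanylurea alone, which by itself widens the gap. For a difference from the mean of the other 3 treatments, the smallest adjusted p was 0.0233 in the 17 and 0.0916 in the 12 (edgeR quasi-likelihood test).

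Of the named genes, 3 were also called in another treatment and FMg011376 in none. FMg006731 fell with metformin by 0.90 on the log2 scale (SE 0.18, adjusted p = 0.00557) and with the mixture by 0.85 (SE 0.14, adjusted p = 0.00185), and stood at −0.40 in controls (SE 0.14, adjusted p = 0.0889). FMg013763 had −0.76 with metformin (adjusted p = 0.029), −0.90 with the mixture (adjusted p = 0.0116) and −0.46 in controls (adjusted p = 0.0768). FMg000308 rose with the mixture by 1.29 (SE 0.35, adjusted p = 0.0327) and stood at 0.53 with metformin (adjusted p = 0.504) and −0.27 in controls (adjusted p = 0.722). FMg011376 stood at 0.61 with metformin (adjusted p = 0.0668), 0.36 with the mixture (adjusted p = 0.244) and 0.18 in controls (adjusted p = 0.607).

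Whether a gene's change differed between treatments was tested in 1 fit of the 96 livers of both times. Against controls the change differed in 171 of 17218 genes (0.993%), of which 61 were higher (0.354%) and 110 lower (0.639%) with guanylurea, and 3 of the 171 are among the 95 (1 that rose and 2 that fell). limma voom called 0 of these differences, and without the control libraries of 96 h numbered 2 and 4 edgeR called 59. Against metformin 2 genes differed (0.0116%). Against the mixture the count was 0 by edgeR, 0 by limma voom and 0 by DESeq2. There 806 genes had an unadjusted p under 0.05 by edgeR, against 860.9 expected if no change differed.

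The 95% interval of the difference from controls lay within 2-fold either way for 16 of the 33 genes that rose and 43 of the 62 that fell, against 51.8% of all 17218 genes. The median difference of changes, guanylurea minus control, was 0.44 in the genes that rose and −0.20 in those that fell (fitted log2). These genes were called in the guanylurea libraries that enter the difference, which by itself widens it. In the genes that rose, the median of guanylurea minus control was −0.22 at 6 h and 0.19 at 96 h (log2 CPM). In those that fell it was −0.0001 at 6 h and −0.16 at 96 h. For FMg000308 the difference was 1.51 (95% interval 0.48 to 2.54, adjusted p = 0.128), and for FMg006731 it was −0.31 (95% interval −0.71 to 0.08, adjusted p = 0.477). A p that misses the threshold does not show that the changes were alike.

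Against the mean of the other 3 treatments, 13 genes differed (0.0755%), 10 higher (0.0581%) and 3 lower (0.0174%) with guanylurea, and 1 of them is among the 95. That gene, which rose, had 0.715 to 28.6 CPM at 96 h (median 2.21) and 0.395 to 1.31 CPM at 6 h (median 0.923) with guanylurea. Its difference of changes was 2.37 (95% interval 1.36 to 3.37, adjusted p = 0.0233, edgeR quasi-likelihood test). In the 10 higher genes a single liver of 96 h held between 47.5% and 97.3% of the summed CPM of its group, and limma voom called 0 of the 13.

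Correlations between called genes from liver to liver were low. With group means taken out, the median Pearson r between 2 genes that fell was 0.198 over the 24 livers and 0.235 over the other 167 libraries. Between 2 genes that rose it was 0.116 and 0.118, and between a gene that rose and one that fell −0.10 and −0.17. Over all pairs of tested genes the median was −0.002 and −0.003. The pairs share libraries and depth, so these values are a description.

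**Figure D5:**
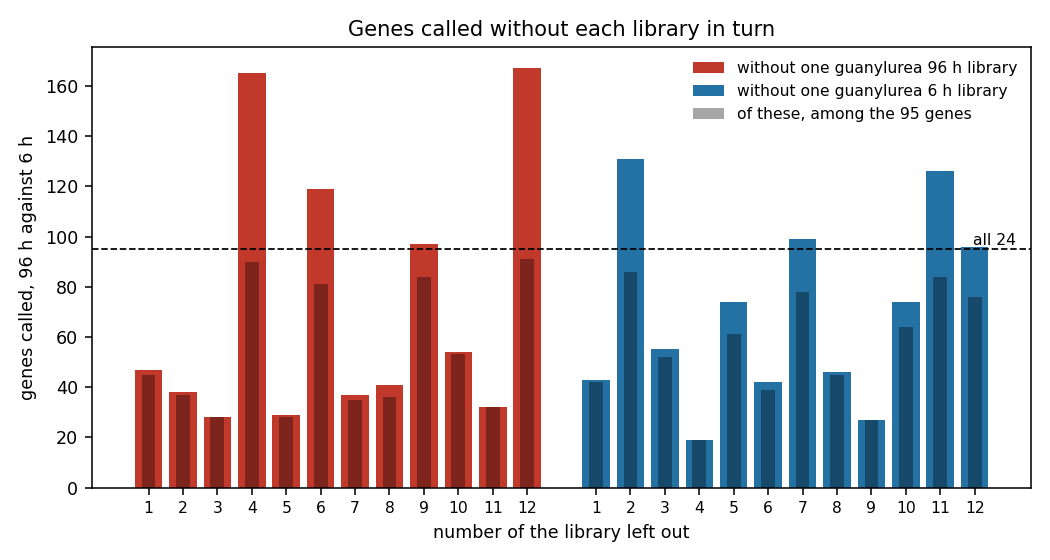
Genes called between 96 h and 6 h with guanylurea (vertical axis, from 0) when the library of the number on the horizontal axis is left out, for 96 h libraries (red, left) and 6 h libraries (blue, right); the dark inner bars are those among the 95 and the dashed line is the count with all 24. The counts run from 19 to 167, with a median of 50.5.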

How the data were processed

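Liver RNA of male fathead minnows was sequenced in 191 libraries, of which 24 (guanylurea, 96 h and 6 h) are the subject here. The authors deposited expected counts (estimated counts per gene, as whole numbers) for 26150 genes and 47578 transcripts, not scaled for depth. The tools named per the submitters' processing notes are RSEM 1.3.1, Bowtie2 2.3.5 and bcl2fastq 1.8.4. Which genome build, annotation and strand setting were used is not given in the sources used here. RSEM shares ambiguous reads among genes, so near-identical copies and overlapping genes have uncertain counts. Of the columns, 0 were unused.

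Rounding the counts altered none of them, and the test was that of edgeR 4.0.16 under R 4.3.3 (filterByExpr with a minimum count of 10 and total of 15, TMM scaling, robust quasi-likelihood fit, Benjamini-Hochberg adjustment over all genes tested, threshold 0.05). Adjusted p-values in the text are from this test unless another tool is named. Alternatives were DESeq2 1.42.0, limma 3.58.1 voom, other scalings, filters and fits, a replicate block and leaving out each library. Log2 CPM used a prior count of 2 with all 191 libraries scaled together. A library agreed poorly when its median correlation with its group lay more than 5 median absolute deviations below that of all libraries. Between any 2 guanylurea libraries both of 96 h or both of 6 h the chi-square per degree of freedom was at least 50.5, so no library repeats another of its own time.

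Named genes are the 2 of smallest p in each direction with a mean of at least 1 CPM and at least 10 of 12 livers of 96 h beyond the 6 h median. The RefSeq table searched for names was that of assembly fPimPro1.hap1.1, with 64593 genes. The members and lists were chosen with earlier results of these data known. On simulated data for guanylurea 96 h against 6 h, edgeR made 111 calls over 14994 genes, 3 of them false, and recovered 17.9%, 56.7% and 87.9% of genes changed 1.5-, 2- and 4-fold. The simulated counts were drawn independently for each gene from a negative binomial distribution with its fitted spread. They hold no correlation between genes, so these rates may not carry over to the livers.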

Additional observations from a re-analysis of the deposited data

Results flagged for a closer look

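The change from 6 to 96 h with guanylurea was tested for a difference from the change in each other treatment, and 3 of these tests made calls (edgeR's quasi-likelihood test). Against controls 171 genes differed, mostly of low abundance: the 61 higher genes had a median of 0.51 log2 CPM and the 110 lower genes 1.01. In the 61 the median change was 0.77 with guanylurea and −0.67 in controls, and in the 110 it was −0.49 with guanylurea and 0.88 in controls. The genes were called for this difference, so the gap between these medians follows from the choice. With metformin and the mixture the median change was 0.02 and −0.03 in the 61, and 0.05 and 0.04 in the 110. The count was 34 without the libraries of poor agreement. Against metformin 2 genes differed. Against the mean of the other 3 treatments 13 genes differed, 10 of them higher, and of those 10 genes 7 had a median under 1 CPM at 96 h.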

How the results depend on the processing

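For guanylurea at 96 h against 6 h, DESeq2 called 437 genes, limma voom 215, a fit with no low-count filter 29, one of all 47 guanylurea libraries 298, one of all libraries of the series 348 and the transcripts in place of genes gave 49, while an adjusted p under 0.10 gave 353 and a test against a 1.2-fold change 4. More genes are tested with no filter, but the cause of the differences between these counts was not tested. Of the 95 genes 83 were called by limma voom and 92 by DESeq2, which gave no adjusted p for the remaining 3. Leaving out 1 library gave 19 to 167 genes; counts moved by over 1.5 times without the 96 h libraries numbered 1, 2, 3, 4, 5, 7, 8, 10, 11 and 12 and the 6 h libraries numbered 1, 3, 4, 6, 8 and 9.

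At 24 h against 6 h limma voom called 64 and DESeq2 140, at 48 h DESeq2 called 448, and between 48 and 96 h DESeq2 called 26. For 96 h against 6 h DESeq2 called 1204 genes with metformin, 1359 with the mixture (limma voom 1166) and 1070 in controls. For the differences between treatments limma voom called 0 against controls, 0 against metformin and 0 against the other 3, and DESeq2 called 8 against metformin and 22 against the other 3. Without the libraries of poor agreement 34 genes differed against controls, 4 against metformin and 1 against the mixture, and without control libraries 2 and 4 of 96 h 59 differed against controls. No library of poor agreement was in the guanylurea fits, so that alternative changes nothing there. In the genes DESeq2 called as lower, the median change with the mixture was −0.49.

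The labels do not say that equal numbers mark the same tank or day. In 2 of 12 pairs the deviations of same-numbered libraries correlated above 0.1 (range −0.15 to 0.27), and 2 of 12 correlated best with their own. Such correlations cannot show whether a tank or day was shared. With the number as a replicate block 50 genes were called (34 of the 95), 12 at 24 h against 6 h, and between 96 and 6 h 128 with metformin, 100 with the mixture and 244 in controls. For the differences the block gave 17 against controls, 0 against metformin and 0 against the other 3. The 2 counts of the 95 genes called in controls were also taken without control libraries, a choice made after seeing the data, and stayed within 1.5 times.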
